A study of Mus musculus with 13 samples.

Results

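The RNA of 8 enzymes that make or use NAD was measured in the liver of 13 male C57BL/6 mice kept on a high-fat diet of the western type for 5 months. The enzymes are Nampt, Nmnat1, Nmnat3, Nadsyn1, Qprt, Nnmt, Cd38 and Parp1. They were chosen by name, from every probe that carries the gene's symbol or an older one, and all 8 of 8 were found, on 13 of the 41174 probes of the array (8 of its 27670 genes). Nampt stands under its older name Pbef1. The groups were 5 mice with wild-type SIRT1 (WT), 5 with the SIRT1 TA knock-in allele, alanine in place of threonine 522 (TAKI), and 3 with the SIRT1 TE knock-in allele, glutamate at that site (TEKI). Threonine can be phosphorylated, alanine cannot, and glutamate carries a negative charge. The labels give one knock-in allele for each altered group and do not say whether the mice are homozygous; age, the hour of tissue collection and litter are not given in the sources used here, and all groups shared the diet, so no group shows the enzymes on ordinary chow. Each mouse is 1 array.

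NAD is the electron carrier of fuel oxidation and also the substrate that SIRT1 splits each time it removes an acetyl group. Cells rebuild it from nicotinamide in the salvage route, in which Nampt makes nicotinamide mononucleotide and the Nmnat enzymes add the adenylyl group. The liver can also build it from tryptophan, where Qprt makes the mononucleotide and Nadsyn1 amidates the last intermediate. Nnmt methylates nicotinamide, which removes it from salvage, while Cd38 and Parp1 consume NAD. Nampt RNA is known to follow the circadian clock in liver.

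Sequences of designed probes are shown for the members on which the results below turn, as the array carries them, 5′ to 3′. The pair for Parp1 shares 40 bases, in capitals, and so shows how far 2 spots for nearly the same stretch of RNA agreed. The Nampt probe shown is the one of its pair with a mouse far from the others, and the Nnmt probe is the only one for the most variable member.
Parp1, first probe: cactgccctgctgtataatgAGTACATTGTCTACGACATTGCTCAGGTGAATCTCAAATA
Parp1, tested probe: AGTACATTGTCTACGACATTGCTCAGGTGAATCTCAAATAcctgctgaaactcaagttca
Nampt, second probe: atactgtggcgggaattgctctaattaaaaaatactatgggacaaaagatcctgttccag
Nnmt, tested probe: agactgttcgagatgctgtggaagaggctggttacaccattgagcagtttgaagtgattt
In the files' mouse build mm7 these lie at chr1:180580265-180580563 (first Parp1 probe, plus strand), chr1:180580285-180580583 (tested Parp1 probe, plus), chr12:30678775-30678834 (second Nampt probe, plus) and chr9:48564184-48564243 (Nnmt, minus). Each Parp1 probe of 60 bases spans 299 bases of the genome, 239 more than its own length. The tested Nampt probe lies at chr12:30690185-30690244, 11410 bases from the second one. Whether a probe lies in coding or untranslated sequence was not determined, since no annotation of that build was used.

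Levels are log2 intensities minus the 75th percentile of the same array, so 0 is the brightness below which 75% of the array's spots lie, and levels of different genes cannot be set against each other. For each gene the brighter probe was tested. All 8 tested probes were well above background on all 13 arrays and none was saturated. Over the whole series, 60.5% to 73.1% of spots were well above background on 12 arrays and 86.8% on TEKI replicate 1, which also had 89 spots of uneven signal against 1 to 6 elsewhere. WT replicate 3 was scanned on another day and alone on its slide, no slide held TAKI with another genotype, and the 3 TEKI arrays shared a slide with WT replicate 5. Slide and genotype therefore cannot be told apart for TAKI. Markers of hepatocytes were bright on all 13 arrays for 9 of 9 tested. Of the genes called higher in TAKI than in WT, 376 lay in the upper rows of the array and 7 in the lower ones, and of those called higher in TEKI than in TAKI, 16 and 485; what part this place effect has in any result below was not tested.

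None of the 8 enzymes differed between genotypes past the threshold. With limma and Benjamini-Hochberg adjustment over 20392 genes, 0 of 8 members were called in TAKI minus WT, where 2.77% of all genes were called, 0 of 8 in TEKI minus WT (0.0049% of genes) and 0 of 8 in TEKI minus TAKI (3.4% of genes). At an unadjusted p under 0.05 the counts were also 0 of 8 in each, against 14.4%, 11.4% and 11.9% of genes, and every alternative processing tried called 0. When each probe was tested alone, 0 of the 13 member probes were called, against 2.19%, 0.00334% and 2.86% of probes in these comparisons. The groups did not overlap for 0, 0 and 1 of the 8 members, against 7.38%, 3.65% and 8.23% of genes. The median difference of the members was -0.04 between TAKI and WT, -0.004 between TEKI and WT and 0.06 between TEKI and TAKI, beside 0.004, 0.08 and 0.07 for all genes. With 8 members at shares of this size, counts of 0 do not set the enzymes apart from other genes. Simulated log2 changes of 1, given to 100 genes, were recovered by this model for 64% of them between TAKI and WT. The share was 56% between TEKI and WT and 54% between TEKI and TAKI. Every member difference was smaller than 1, so these shares do not say how often changes of the members' size would be found.

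**Figure D1:**
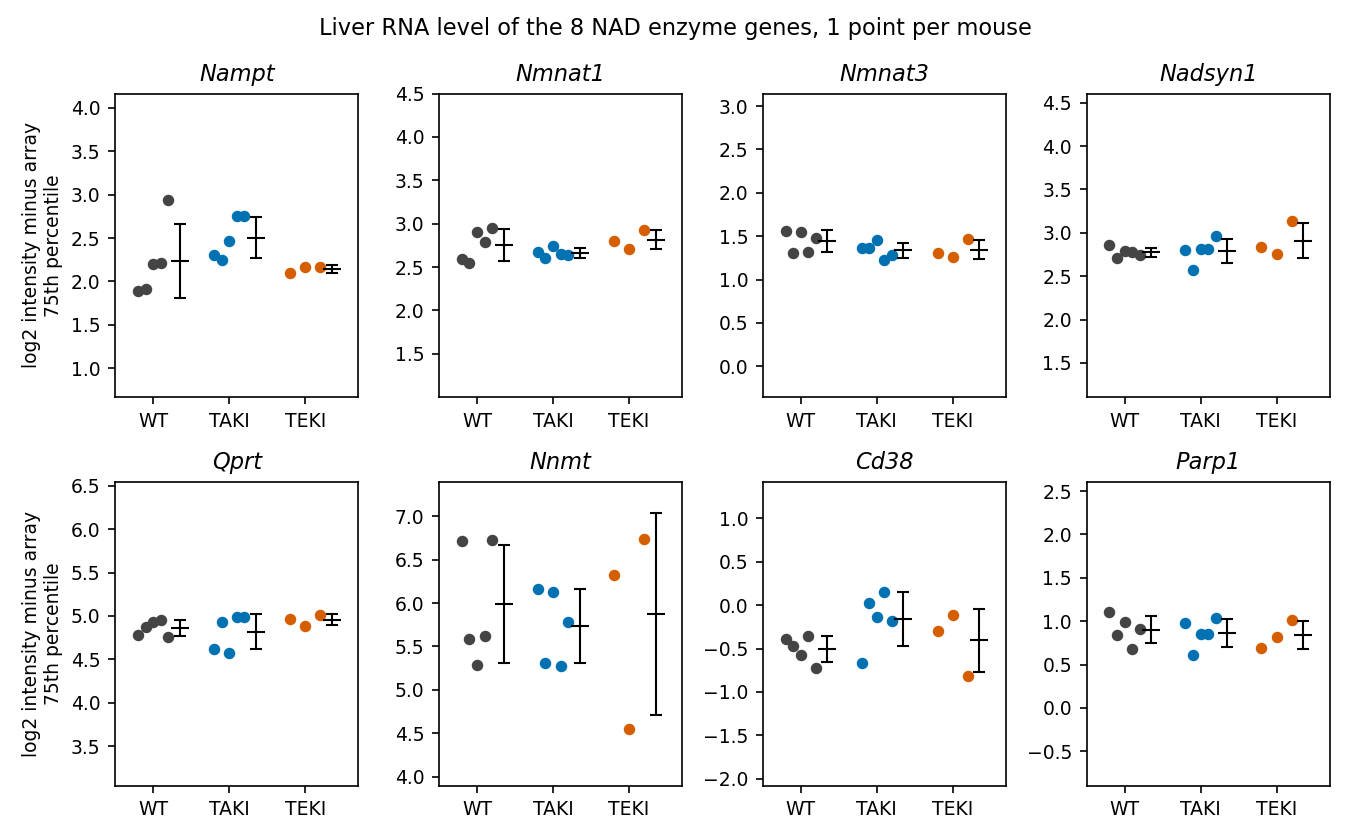
Levels of the 8 NAD enzyme genes in each mouse (log2 intensity minus the array's 75th percentile, vertical axis, same span in every panel), by genotype; points are mice (WT n = 5, TAKI n = 5, TEKI n = 3), and the bar beside them is the mean with its SD. Nnmt spans 4.55 to 6.74 while Nmnat3 spans 1.22 to 1.56, and the genotypes overlap in every panel except Nampt, where the 3 TEKI points lie below the 5 TAKI points.

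Nampt, the rate-limiting enzyme of salvage from nicotinamide, had the highest values in TAKI on average and the narrowest spread in TEKI. Its levels in WT replicates 1 to 5 were 1.89, 1.92, 2.20, 2.21 and 2.94. In TAKI replicates 1 to 5 they were 2.30, 2.25, 2.47, 2.75 and 2.75, and in TEKI replicates 1 to 3 they were 2.09, 2.17 and 2.16. WT replicate 5 stood above every other mouse and WT replicates 1 and 2 below every other mouse, so WT covered the range of both knock-ins, whereas the highest TEKI mouse lay below the lowest TAKI mouse. Non-overlap in that direction occurred for 2.77% of all genes. The difference was -0.36 ± 0.22 (SE; 3 against 5 mice) for TEKI minus TAKI, with a limma p of 0.125 and an adjusted p of 0.575.

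The second Nampt probe did not separate TEKI from TAKI: its difference was -0.44 ± 0.31 (SE, limma adjusted p 0.629 over probes), and TEKI replicate 1 at -1.26 lay above TAKI replicates 1 and 2 at -1.51 and -1.53. TAKI minus WT was 0.27 ± 0.19 on the tested probe (SE, limma adjusted p 0.592; 95% interval -0.14 to 0.69) and 0.21 ± 0.27 on the other (SE, limma adjusted p 0.815). One mouse weighed on this value. Without WT replicate 5 the difference on the tested probe was 0.45 ± 0.13 (SE), with an adjusted p of 0.106 from limma. TEKI minus WT was -0.09 ± 0.22 with that mouse (SE, limma adjusted p 0.922) and 0.09 without it.

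Nampt was set against 14 genes of the circadian clock, which its RNA is known to follow. Arntl, which encodes the activator BMAL1, stood at -0.04 in WT replicate 1, the mouse with the least Nampt, and at -2.63 in WT replicate 5, the mouse with the most. Dbp, a clock-driven transcription factor, went the other way, with 4.85 in WT replicate 1 and 7.17 in WT replicate 5. These were the highest and the lowest Arntl level and the lowest and the highest Dbp level of the 13 mice. The 3 TEKI mice stood within 2.09 to 2.17 for Nampt while their Dbp ran from 5.77 to 6.58.

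By their Ciart level the mice were split into 2 sets, cut at its widest gap. Ciart, a clock repressor of large amplitude, lay between -4.27 and -2.55 in replicates 1 and 2 of every genotype, and between -1.17 and 0.07 in the other 7 mice. In all, 5 of the 14 clock genes did not overlap between these sets: Ciart, Arntl, Dbp, Tef, a transcription factor related to Dbp, and Per2, a repressor of the clock. Ciart could not overlap, since the sets were cut by it. The other clock genes overlapped, and the share of all genes that did not overlap between these sets was not computed. The gap was narrow for Dbp, from 6.23 to 6.28. Nampt ranged from 1.89 to 2.30 in the 6 mice of low Ciart, with a median of 2.13, and from 2.16 to 2.94 in the 7 mice of high Ciart, with a median of 2.47, so the sets overlapped. The sets were read from these values and carry no test.

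Over all 13 mice, r of Nampt was -0.75 with Arntl, 0.74 with Per2, 0.72 with Ciart, 0.69 with Dbp and 0.67 with Tef. The permutation p, adjusted over 14 clock genes, was 0.0264 for Arntl, Per2 and Ciart and 0.0332 for Dbp and Tef. By rho it was 0.159 for each, and on the second Nampt probe the smallest by r was 0.117. Without WT replicates 5 and 1, r with Arntl was -0.48 (permutation p 0.142), and under other processing it was -0.41 at its weakest. Since the mice fell into these sets, each r over all 13 also holds the step between the sets. Within the 6 mice of low Ciart, r of Nampt was -0.19 with Arntl, 0.17 with Dbp, -0.08 with Per2, 0.36 with Tef and 0.48 with Ciart. Within the 7 mice of high Ciart it was -0.57 with Arntl (exact permutation p 0.161), 0.65 with Dbp (exact permutation p 0.0736) and 0.78 with Per2 (exact permutation p 0.0159). There it was 0.45 with Tef and 0.59 with Ciart (exact permutation p 0.338 and 0.160). None of the 28 relations within sets passed after adjustment, with a smallest adjusted p of 0.194 by Pearson's r and 0.990 by Spearman's rho. The sets were cut at the widest gap of Ciart, which narrows these genes within a set. With only 6 and 7 mice as well, no conclusion on Nampt and the clock is drawn from the values within sets. Nr1d1, the repressor REV-ERB alpha, whose sets overlapped, had an r of 0.07 (permutation p 0.821, also after adjustment over 14 clock genes) and a rho of 0.07 (permutation p 0.819) over the 13 mice. Without TAKI replicates 2 and 3 r was -0.04, and it was 0.53 (permutation p 0.0693) with arrays scaled to their median. No slide held more than 4 arrays, too few for a value within slides.

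**Figure D2:**
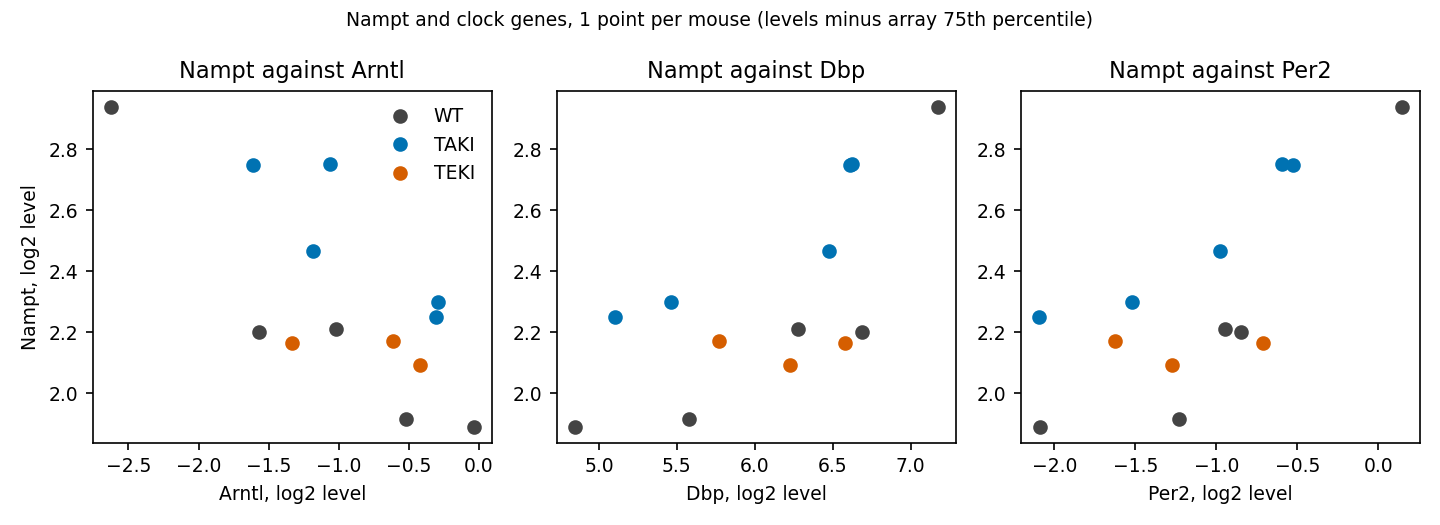
Nampt level (vertical axis) against the level of Arntl, Dbp and Per2 (horizontal axes), all as log2 intensity minus the array's 75th percentile, 1 point per mouse, coloured by genotype. Nampt is highest in the mouse with Arntl at -2.63 and Dbp at 7.17, and lowest in the mouse with Arntl at -0.04 and Dbp at 4.85.

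None of the 14 clock genes was called between genotypes in any of the 3 comparisons, with a median of -0.05 between TAKI and WT, of -0.07 between TEKI and WT and of 0.01 between the knock-ins. The promoter windows of RefSeq (build GRCm38.p6, 250 bases before to 50 after the start of transcription) were searched on both strands for the E-box CACGTG, the core letters that BMAL1 binds with its partner, and for the D-box letters TTATGTAA and TTACGTAA that Dbp binds. A window was found for 7 of the 8 members, all but Nnmt. Parp1 alone held CACGTG, starting 49 bases before the start, and no member held either D-box form, while 7.15%, 0.938% and 0.119% of the 32851 windows held these letters. A match or its lack describes these 300 bases and no more.

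The Nmnat enzymes, which complete NAD synthesis in the nucleus (Nmnat1) and are described for mitochondria (Nmnat3), varied less between mice than most genes. Nmnat3 ranged from 1.22 to 1.56 over the 13 mice and Nmnat1 from 2.55 to 2.95. Their pooled SD within genotypes was 0.109 and 0.130, at the 4.47th and the 10.2nd percentile of all genes tested, whose median was 0.294. For Nmnat1, WT covered both knock-ins, and TAKI minus WT was -0.09 ± 0.10 (SE, limma adjusted p 0.742). For Nmnat3 the same difference was -0.11 ± 0.09 (SE, limma adjusted p 0.658), with a 95% interval from 0.813-fold to 1.06-fold.

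Qprt and Nadsyn1, the enzymes of the route from tryptophan, also varied less than most genes. Nadsyn1 lay between 2.58 and 3.14, lowest in TAKI replicate 2 and highest in TEKI replicate 3, and Qprt between 4.57 and 5.01. The pooled SD within genotypes was 0.129 for Nadsyn1 and 0.146 for Qprt, at the 9.78th and the 15.4th percentile of all genes tested. Their largest differences were 0.14 ± 0.11 for Nadsyn1 in TEKI minus WT (SE, limma adjusted p 0.669) and 0.14 ± 0.12 for Qprt in TEKI minus TAKI (SE, limma adjusted p 0.722). The probes of Nadsyn1 share 43 bases and gave r = 0.86 over the mice.

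Nnmt, the methyltransferase that takes nicotinamide out of salvage, varied more between mice of a genotype than any other member. In WT replicates 1 to 5 its levels were 6.72, 5.58, 5.29, 5.62 and 6.73. In TAKI replicates 1 to 5 they were 6.17, 5.31, 6.13, 5.28 and 5.78, and in TEKI replicates 1 to 3 they were 6.33, 4.55 and 6.74. The TEKI group held both the lowest and the highest of the 13 mice, 4.56-fold apart, and so spanned both other groups. The pooled SD within genotypes was 0.728, at the 83.8th percentile of all genes tested and the 96.8th of the 15510 genes well above background on all arrays. The differences were -0.25 ± 0.43 for TAKI minus WT (SE, limma adjusted p 0.863), -0.11 ± 0.49 for TEKI minus WT (SE, adjusted p 0.960) and 0.14 ± 0.49 for TEKI minus TAKI (SE, adjusted p 0.945). The 95% interval of TEKI minus WT ran from 0.438-fold to 1.95-fold, and changes within it cannot be told from none in these mice. Without TEKI replicate 2, TEKI minus WT was 0.55.

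Nnmt followed the mean of the 9 hepatocyte markers over the mice, with r = 0.72 (permutation p 0.00499, adjusted 0.0349 over 7 members) and rho = 0.81 (permutation p 0.0013, adjusted 0.0091). Without TEKI replicate 3 and WT replicate 5, the mice with the most hepatocyte marker RNA, r was 0.57 (permutation p 0.0646). In this whole-tissue RNA, fewer cells of a type and less RNA per cell cannot be told apart. Of the other members tested against these markers, Nmnat1 (r 0.67, adjusted p 0.0382) and Nadsyn1 (r 0.66, adjusted p 0.0417) passed the permutation test by Pearson's r. By rho neither did, with adjusted p of 0.0595 and 0.279.

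Cd38, an NAD glycohydrolase of immune and endothelial cells, had the TAKI minus WT difference of smallest p among the members. Its levels in WT replicates 1 to 5 were -0.39, -0.47, -0.57, -0.35 and -0.72. In TAKI replicates 1 to 5 they were -0.66, 0.03, -0.14, 0.15 and -0.18, and in TEKI replicates 1 to 3 they were -0.29, -0.11 and -0.81. Thus 4 of 5 TAKI mice stood above all 5 WT mice, and the fifth, TAKI replicate 1, lay within WT. TAKI minus WT was 0.34 ± 0.17 (SE, limma p 0.0665, adjusted p 0.395), or 1.27-fold with a 95% interval from 0.981-fold to 1.64-fold. It was 0.47 ± 0.15 without TAKI replicate 1 (SE, limma adjusted p 0.156).

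The second, dimmer Cd38 probe, well above background on 11 arrays, gave 0.52 ± 0.24 for TAKI minus WT (SE, limma p 0.054, adjusted p 0.390 over probes). For TEKI minus TAKI it gave -0.65 ± 0.28 (SE, limma p 0.0397, adjusted p 0.382); 11.9% of all probes had an unadjusted p under 0.05 there. Only 1 of 3 TEKI mice was well above background on that probe. The tested probe gave -0.25 ± 0.20 for TEKI minus TAKI (SE, adjusted p 0.687 from limma), and -0.04 without TEKI replicate 3. TEKI minus WT was 0.10 ± 0.20 on the tested probe (SE, limma adjusted p 0.902). Both probes lie in the upper rows of the array, and with the levels centred within bands of rows TAKI minus WT on the tested probe was 0.33 ± 0.20 (SE, limma adjusted p 0.512).

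Over the 13 mice r of Cd38 was -0.80 with the mean of the hepatocyte markers (permutation p 0.00073, adjusted 0.00584 over 8 marker lists) and rho -0.71 (permutation p 0.00822, adjusted 0.0329). Without TEKI replicate 3 and WT replicate 5, r was -0.65 (permutation p 0.0311). With the mean of 8 endothelial markers r was 0.70 (permutation p 0.00784, adjusted 0.0209) and rho 0.81 (permutation p 0.00118, adjusted 0.00944), and r was 0.55 (permutation p 0.0804) without TEKI replicate 2 and TAKI replicate 4.

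The means of the stellate and fibroblast list (r 0.70, adjusted permutation p 0.0209), the cholangiocyte list (r 0.67, adjusted 0.022) and the macrophage list (r 0.67, adjusted 0.022) followed Cd38 too, the last with an adjusted p of 0.0546 by rho. The lymphocyte list (r 0.34), the neutrophil list (r 0.45) and the pancreatic acinar list (r -0.01) did not pass. Some of these values rest on a pair of mice. Without the 2 mice farthest from each list's median, r was 0.55 for stellate cells (permutation p 0.0832, without TAKI replicate 1 and TEKI replicate 3) and 0.45 for macrophages (permutation p 0.167, without the same mice). It was 0.75 for cholangiocytes (permutation p 0.0095, without TAKI replicate 2 and WT replicate 2) and 0.81 for lymphocytes (permutation p 0.00362) without replicate 1 of TEKI and of TAKI.

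In TAKI minus WT, 50.6% of all genes had a difference above 0, beside 7 of 8 endothelial markers (median 0.21), 12 of 12 lymphocyte markers (median 0.42), 6 of 6 cholangiocyte markers (median 0.17) and 8 of 10 macrophage markers (median 0.20). Counts were lower for stellate and fibroblast markers, 4 of 8 (median -0.04), and neutrophil markers, 3 of 8 (median -0.09). They were 4 of 9 for hepatocyte markers (median -0.04) and 4 of 8 for acinar markers (median -0.02). Past the threshold there were 2 of 12 lymphocyte markers, both higher and Cd2 among them, beside 2.77% of all genes. Of the 8 acinar markers 1 was called higher and 1 lower, and no marker of the other lists was called. In TEKI minus WT, 63.4% of all genes lay above 0, beside 7 of 8 endothelial markers (median 0.31) and 11 of 12 lymphocyte markers (median 0.47), and none passed. Of the other lists, 7 of 9 hepatocyte (median 0.12), 6 of 8 neutrophil (median 0.54) and 7 of 8 acinar markers (median 1.11) lay above 0. So did 5 of 10 macrophage (median 0.03), 3 of 6 cholangiocyte (median -0.08) and 3 of 8 stellate and fibroblast markers (median -0.25). Only 3 of the 8 acinar markers were well above background on all 13 arrays. With each gene centred on its mean in WT, the mean of the endothelial list ran from -0.25 to 0.09 in WT, from -0.08 to 0.44 in TAKI and from 0.08 to 0.49 in TEKI. That of the hepatocyte list ran from -0.13 to 0.23, from -0.22 to 0.22 and from -0.16 to 0.46. All 8 endothelial and all 9 tested hepatocyte markers were well above background on every array. The part of these cells in the Cd38 difference was not tested.

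**Figure D3:**
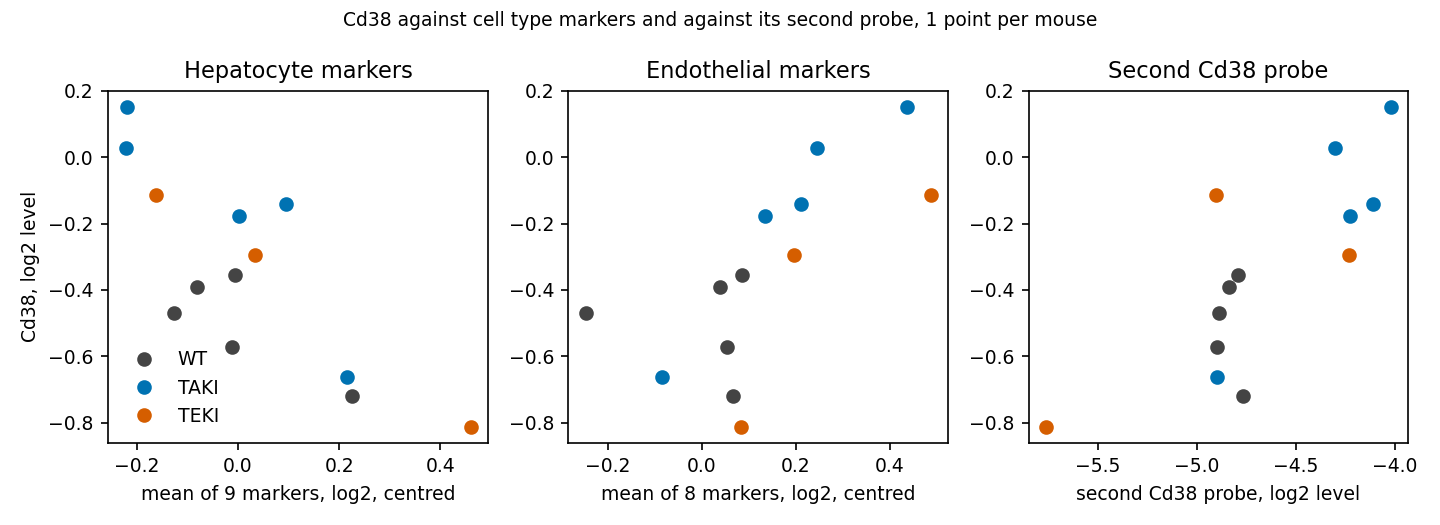
Cd38 level on its tested probe (vertical axis, log2 intensity minus the array's 75th percentile) against the mean of 9 hepatocyte markers and of 8 endothelial markers (log2, each gene centred on its mean in WT) and against the second Cd38 probe, 1 point per mouse, coloured by genotype. The mouse with most hepatocyte marker RNA, at 0.46, has the least Cd38, at -0.81.

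Parp1, the polymerase that spends NAD on marking DNA damage, was even across genotypes. The tested probe ranged from 0.61 to 1.10, lowest in TAKI replicate 2 and highest in WT replicate 1, and its mean was 0.90 ± 0.16 in the 5 WT mice, 0.86 ± 0.16 in the 5 TAKI mice and 0.84 ± 0.16 in the 3 TEKI mice (SD). The 2 probes that share 40 bases gave r = 0.90 over the mice. For TAKI minus WT they gave opposite signs, -0.04 ± 0.11 and 0.10 ± 0.11 (SE, limma adjusted p 0.925 over genes and 0.793 over probes). Differences of that size thus also arise between spots for nearly the same sequence.

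**Figure D4:**
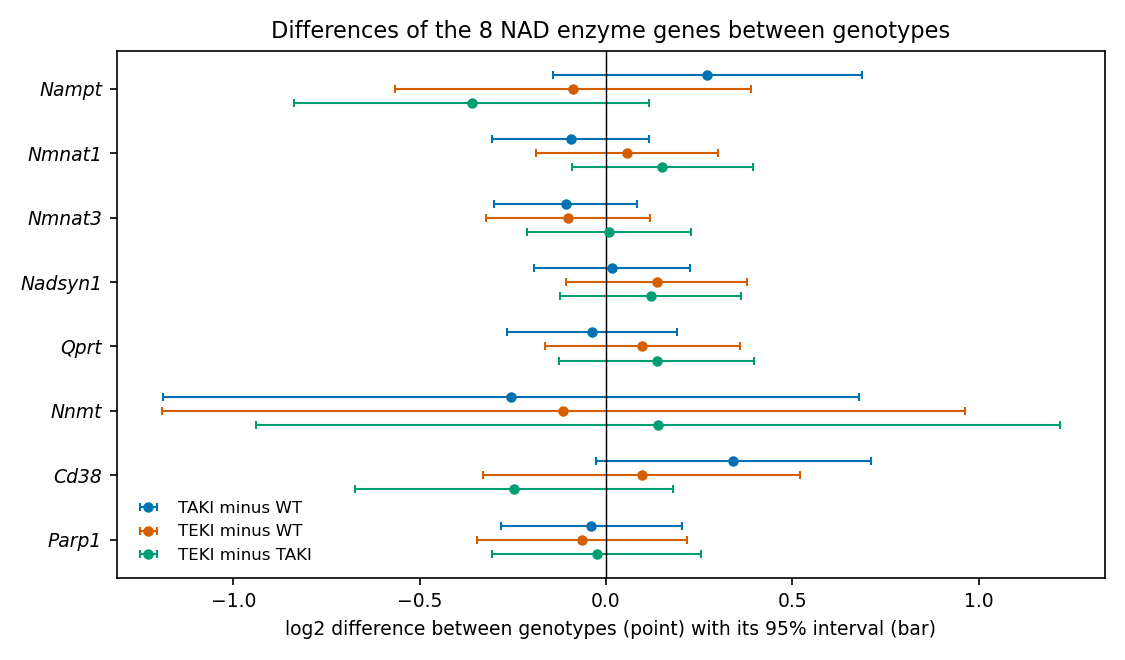
Log2 differences of the 8 genes between genotypes (horizontal axis; points are the limma estimates and bars their 95% intervals). Every interval includes 0, and those of Nnmt are the widest, reaching from -1.19 to 0.96 for TEKI minus WT.

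The members did not move as one set. Of the 28 pairs of members none passed over the 13 mice, with a smallest adjusted permutation p of 0.281 by Pearson's r and 0.276 by rho. Among these were Nnmt with Cd38 (r -0.60, permutation p 0.0306) and Nadsyn1 with Parp1 (r 0.61, permutation p 0.0242). For each member the genes of most similar pattern were sought among 13231 genes, by r after subtracting genotype means over 13 arrays, a description with no p since the closest of so many must be close. They were Etfbkmt (r 0.95) and Hoxb6 (0.94) for Nampt, Zcrb1 (0.96) for Nmnat1, Tmed10 (0.93) and Ino80e (0.90) for Nmnat3, and Garem1 and Ubr7 (both 0.93) for Nadsyn1. For Qprt they were Pdss1 (0.94) and Chd1l (0.88), for Nnmt Odf4 (0.96) and Olfr569 (0.94), for Cd38 Clec5a and Marcks (both 0.95), and for Parp1 Map2k1 (0.94) and Becn1 (0.91).

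Other genes of NAD metabolism were counted from lists of the pathway. The list for the route from tryptophan and its branches had 0 of 9 tested genes called in any comparison, with a median of 0.13 between TAKI and WT, 0.16 between TEKI and WT and 0.09 between TEKI and TAKI. Ido1, which opens the tryptophan ring outside hepatocytes, stood at -4.83, -4.47, -5.03, -4.57 and -3.26 in WT replicates 1 to 5, at -3.48, -3.66, -3.19, -3.80 and -2.87 in TAKI replicates 1 to 5, and at -2.61, -3.33 and -3.44 in TEKI replicates 1 to 3. Except for WT replicate 5, every WT mouse lay below every knock-in mouse. That mouse lay within TEKI and was the only WT mouse on the slide of the TEKI arrays. The Ido1 probe lies in row 188, in the upper part, where most genes called higher in TAKI than in WT lie. The part of slide and row in these differences was not tested. TAKI minus WT was 1.03 ± 0.32 (SE, limma adjusted p 0.126) and TEKI minus WT 1.31 ± 0.37 (SE, limma adjusted p 0.397); both share the WT mice.

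Acmsd, which diverts an intermediate of this route from NAD, was well above background on only 6 arrays, 4 of them TAKI, 1 WT and 1 TEKI. Its measured TAKI minus WT difference was 1.63 ± 0.40 (SE, limma adjusted p 0.0525), and TEKI minus WT was 1.47 ± 0.46 (SE, adjusted p 0.397 from limma). Here too WT replicate 5, at -5.43, was the highest of WT and lay within TEKI. The Acmsd probe lies in row 251, also in the upper part. Tdo2, the hepatocyte enzyme that opens the ring, and the transaminase Kyat1 had the smallest p for TEKI minus TAKI, at -0.23 ± 0.24 and 0.37 ± 0.33 (SE; limma adjusted p 0.773 and 0.725).

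Of the other salvage genes 0 of 6 were called, of those for NADP and NAD transport 0 of 3, and of nicotinamide and NAD clearance 0 of 3, in each comparison. The genes of smallest p were the nicotinamide riboside kinase Nmrk2 (1.10 ± 0.53, TAKI minus WT, and 1.23 ± 0.61, TEKI minus WT), Slc12a8, Pnp and Naprt for salvage, Nadk and the transhydrogenase Nnt (-0.21 ± 0.10, TAKI minus WT) for NADP, and Aox1, Aox3 and Nudt12 for clearance. Their limma adjusted p ranged from 0.372 for Nnt upward, and the errors are SE. The other Nnt probes, well above background on all 13 arrays, gave 0.11, 0.12 and 0.04 for TAKI minus WT. The lower Nnt in TAKI thus rests on the tested probe alone. For Nmrk2, WT replicate 3 stood at -7.61 and the other WT mice between -4.81 and -4.28. Without that mouse its differences were 0.49 ± 0.20 and 0.63 ± 0.22 (SE, limma adjusted p 0.312 and 0.601).

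Among NAD consumers other than the members, 1 of 11 was called, Sarm1, an NAD hydrolase best known from axons, and among the sirtuins 1 of 7, Sirt6. Both calls were in TEKI minus TAKI, where 3.4% of all genes were called and each list had none in the other comparisons. The measured difference was 1.70 ± 0.33 for Sarm1 (SE, limma adjusted p 0.0134) and 1.55 ± 0.28 for Sirt6 (SE, limma adjusted p 0.009). Neither call held under every alternative. With quantile normalization the differences were 1.02 and 0.99 (limma adjusted p 0.143 and 0.183), with the replicate block Sarm1 was 1.57 (limma adjusted p 0.0679), and without TEKI replicate 3 Sirt6 was 1.45 (limma adjusted p 0.0523). With normexp background correction the differences were 1.00 and 0.97, still past the threshold. That setting called 4109 of 20392 genes in TEKI minus TAKI, 3958 of them higher, so passing it sets these genes little apart. Sarm1 was well above background on 3 of 3 TEKI, 1 of 5 TAKI and 4 of 5 WT arrays, and Sirt6 on 3, 4 and 4. Sirt6 lay at -3.45, -3.67 and -3.26 in TEKI replicates 1 to 3 and at -5.45, -4.96, -4.84, -5.08 and -4.73 in TAKI replicates 1 to 5, with no overlap (5.46% of all genes in that direction). In WT replicates 1 to 5 it was -4.18, -4.50, -5.20, -4.20 and -3.72, so that WT overlapped TAKI and lay below TEKI.

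Each of these genes has 1 probe on the array, in rows 475 and 480 of 532. The lower rows, from the middle of the array down, hold 485 of the 501 genes called higher in TEKI than in TAKI. With levels centred within bands of rows the differences were 1.45 (Sarm1, limma adjusted p 0.0139) and 1.24 (Sirt6, limma adjusted p 0.0206). Sirt1 itself had a mean of 0.32 ± 0.13 in the 5 WT mice, 0.31 ± 0.23 in the 5 TAKI mice and 0.24 ± 0.27 in the 3 TEKI mice (SD) on its tested probe. Its other probe, well above background on all 13 arrays, gave 0.25 ± 0.12 for TAKI minus WT (SE, limma adjusted p 0.410 over probes). There TEKI minus TAKI was -0.27 ± 0.14 (SE, limma adjusted p 0.483 over probes). The other consumers and sirtuins of smallest p were Parg (-0.23 ± 0.10, TAKI minus WT), Tnks2 (-0.25 ± 0.10, TEKI minus WT), Tnks, Sirt7 and Sirt3 (0.34 ± 0.16, TEKI minus TAKI; errors are SE), none past the threshold.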

How the data were processed

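The scanner files hold processed spot intensity values made by the authors with Agilent Feature Extraction 9.5, per the submitters' processing notes; per the file headers they are background-subtracted, on a linear scale and not scaled between arrays. The authors' deposited value table holds the same intensity values, with a largest difference of 0. Per the labels, 500 ng of RNA was labelled with Cy3. Python 3.11.15 with numpy 2.4.6 and pandas 2.3.3 read the files and computed the correlations. R 4.3.3 took log2, subtracted the 75th percentile of each array, left out spots flagged as outliers and averaged the remaining spots of a probe.

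Per gene, the probe of highest mean was tested if well above background on at least 3 arrays (20392 genes), with limma 3.58.1 in R 4.3.3: 1 model of 3 genotypes over 13 arrays, 10 residual degrees of freedom, adjusted p under 0.05. limma was tested on simulated data first. The mice are separate animals per the design text. Correlations over 13 mice used 100000 permutations and those over 6 or 7 mice all permutations, two-sided, adjusted within families of 14, 28, 28, 8 and 7 relations, which were chosen after the data were seen. Depth has no equivalent here; the number of arrays limits the precision. Named genes were all members, any gene of a pathway list past the threshold, the 2 of smallest p per list and comparison, Sirt1, the 2 most alike genes per member, Arntl, Nr1d1 and Dbp, and cell markers past the threshold; Per2, Tef and Ciart were added after their values were seen. The members and lists were chosen with earlier results of these data known. Alternatives were other scalings, background correction, filters, probe rules, slide and replicate blocks, row bands, and leaving out each array. Nmnat2 and Cela2a did not pass the filter, and Haao, Nadk2, Parp10, Serpina1a, Ly6g and Amy2a were not analysed here. Some genes that the rule names are left out of the text.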

Additional observations from a re-analysis of the deposited data

Results flagged for a closer look

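One group of mice held a value far from the others. On the second Nampt probe, WT replicate 5 stood at -0.42 while the nearest other WT mouse was at -1.40, a gap of 0.76 of the group's whole range against a limit of 0.71 for 5 samples. On the tested Nampt probe the same mouse was also the highest of WT, at 2.94 against 2.21, without passing that limit. In total 38 groups of mice and probes were examined in this way and 1 was singled out, and chance singles out about 1 in 20. These were the WT and the TAKI mice for each member probe and for Sarm1, Sirt6, Arntl, Nr1d1, Dbp and Sirt1. The 3 TEKI mice and other genes named above, such as Nmrk2, were not examined, so this is no full tally.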

How the results depend on the processing

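No alternative called any of the 8 members: over 583 alternative values of 24 member differences the lowest adjusted p was 0.106, for Nampt in TAKI minus WT without WT replicate 5. The sign of a difference changed in 54 of them, and 8 of the 24 differences kept their sign throughout; the cause was not tested. Scaling to the array median moved the median of all genes to -0.15, -0.33 and -0.19 in TAKI against WT, in TEKI against WT and in TEKI against TAKI. It turned Nadsyn1 to -0.14 in the first, Nmnat1, Nadsyn1, Qprt and Cd38 to -0.35, -0.28, -0.31 and -0.32 in the second, and Nmnat1, Nmnat3, Nadsyn1, Qprt and Nnmt to -0.10, -0.25, -0.13, -0.12 and -0.11 in the third. Row-band centring turned Nmnat1, Nadsyn1, Qprt and Cd38 to -0.19, -0.11, -0.11 and -0.10 in TEKI minus WT, and Nmnat1, Nmnat3, Nadsyn1, Qprt and Nnmt to -0.0271, -0.242, -0.152, -0.0393 and -0.0435 in TEKI minus TAKI. Normexp gave Nadsyn1 -0.0183 and Qprt 0.0194 in TAKI minus WT and Nmnat3 -0.0101 in TEKI minus TAKI, and quantile normalization gave Qprt 0.0173 in TAKI minus WT and Sarm1 -0.11 in TEKI minus WT. The mean of all probes gave Nadsyn1 -0.0307 and Parp1 0.0282 in TAKI minus WT and Cd38 -0.0171 in TEKI minus WT, and the other probe alone -0.0775, 0.0958 and -0.13. In TEKI minus WT, slide as a fixed block and slide 3 alone both gave Nmnat1 -0.14, Nampt -0.80 and Nnmt -0.85, not past the threshold. Slide 3 held only 1 WT mouse, replicate 5, the highest for Nampt.

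The replicate numbers shared by the groups were not taken as pairs in the main model. Same-numbered mice correlated between -0.23 and 0.32, and 4 of the 11 pairs correlated best with their own number. Ciart was low in replicates 1 and 2 of every genotype, so the numbers may still carry an order shared by the groups, which was not tested. With the number as a replicate block 0 members were called in each comparison, Nampt was 0.11 in TEKI minus WT and Nmnat3 -0.0363 in TEKI minus TAKI.

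Leaving out each array in turn, TAKI minus WT ran from -0.026 to 0.0697 for Nadsyn1, from -0.0795 to 0.0241 for Qprt and from -0.0966 to 0.0249 for Parp1. TEKI minus WT ran from -0.17 to 0.0884 for Nampt, from -0.000839 to 0.11 for Nmnat1, from -0.55 to 0.55 for Nnmt, from -0.0514 to 0.299 for Cd38 and from -0.15 to 0.00679 for Parp1. TEKI minus TAKI ran from -0.054 to 0.0488 for Nmnat3, from -0.29 to 0.80 for Nnmt and from -0.11 to 0.0463 for Parp1, and r of Nampt with Nr1d1 from -0.0374 to 0.19. Slide as a fixed block could not be fitted for TAKI, since no slide held it with another genotype.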
